A study of Homo sapiens with 10 samples.

Results

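The unfolded protein response and the integrated stress response were followed here through 10 genes, ATF4, DDIT3, TRIB3, ASNS, CHAC1, SESN2, XBP1, HSPA5, HERPUD1 and PPP1R15A, out of 20136 protein-coding genes in the annotation. The genes were taken by name, with no threshold on a measured value, but earlier results of these data were known when they were chosen. For each gene, peaks were listed at every annotated transcript start and 1 kb on each side, along the rest of the gene, and within 20 kb of it.

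The cells were HCT116, a human colorectal carcinoma line, grown in standard medium with serum, and the labels name no stress treatment, genotype change or time course. Each antibody had 1 library, so the groups are the antibodies: total RNA polymerase II (Pol II), KAP1 (also called TRIM28, a protein that recruits other regulators to chromatin), Cdk9 (the kinase in P-TEFb, which releases paused polymerase), and Larp7 and Hexim1, which with the 7SK RNA keep P-TEFb in an inactive complex. Peak lists of these 5 libraries were analysed out of 10 libraries in the series. No antibody has a second library, so there is no spread between samples and no test. Every share and rank below describes these libraries, and read depth is unknown.

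The labels give the cell type as endothelial, while the line is of epithelial origin. Pol II was at a promoter of 5 of 8 colon epithelium markers (EPCAM, CDH1, KRT8, KRT18 and CDX2) and of 3 of the 7 endothelial markers that were matched (TIE1, CLDN5 and ERG). The endothelial markers CDH5, VWF, KDR and TEK had no Pol II peak at a promoter, nor did the epithelial markers KRT20, VIL1 and LGALS4. Both counts are below the share over all coding genes, 77.2%, so they do not tell the cell type.

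When misfolded protein collects in the endoplasmic reticulum, sensors in its membrane act through separate arms. The kinase PERK phosphorylates the translation factor eIF2α, which lowers protein synthesis overall but raises translation of ATF4. The nuclease IRE1 splices XBP1 mRNA, and the precursor ATF6 is cut to release a transcription factor. ATF4 binds composite elements (CARE) in genes of amino acid supply and of the stress response. ATF6 and spliced XBP1 act at endoplasmic reticulum stress elements (ERSE and ERSE-II) in genes of chaperones and of protein degradation. Many of these genes are induced quickly, and the pausing and release of Pol II is a known step in the control of inducible genes.

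Such elements were found in the promoters of 5 of the 10 genes, in the 250 bases before and 50 bases after the canonical transcript start. They are shown because the peaks described below cover them. Each line is hg19, read on the gene's strand, 5′ to 3′, with the match in capitals.
HSPA5, chr9:128003650-128003708, minus strand, ERSE: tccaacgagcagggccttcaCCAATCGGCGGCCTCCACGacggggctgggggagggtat
XBP1, chr22:29196571-29196629, minus strand, ERSE: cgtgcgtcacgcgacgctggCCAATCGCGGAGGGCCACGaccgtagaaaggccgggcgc
HERPUD1, chr16:56965858-56965967, plus strand, CARE then ERSE-II: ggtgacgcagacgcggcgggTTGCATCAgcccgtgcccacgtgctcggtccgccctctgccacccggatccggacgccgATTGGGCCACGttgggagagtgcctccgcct
ASNS, chr7:97501770-97501799, minus strand, CARE: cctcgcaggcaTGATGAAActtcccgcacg
CHAC1, chr15:41245449-41245478, plus strand, CARE: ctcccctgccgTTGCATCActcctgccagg

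The motifs searched, on both strands, were ERSE (CCAAT and CCACG with 9 bases of any kind between them), ERSE-II (ATTGG and CCACG with 1 base between them), CARE (TGATGNAA) and the core of the unfolded protein response element, UPRE (TGACGTGG). No match overlapped another in these 5 promoters. ERSE was found in 2 of the 10 promoters and in 0.106% of 19855 coding promoters of the same length. ERSE-II was found in 1 of the 10 and in 0.0705% of all, and CARE in 3 of the 10 and in 2.49% of all. The UPRE core was in none of the 10 and in 0.816% of all. In CHAC1 and HERPUD1 the CARE lay on the strand opposite to the gene. The ERSE ended 48 bases before the canonical start in HSPA5 and 34 bases before it in XBP1, and the CARE of ASNS ended 61 bases before its start. A match describes these letters and is not evidence of binding. The GC content of the 300-base windows was between 56% (PPP1R15A) and 70.3% (HERPUD1), with a median of 64.3% over the 10 genes and 63.7% over all coding promoters.

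The Pol II peak covered all 6 of these matches, with its summit between 95 bp (XBP1) and 242 bp (CHAC1) further downstream. The Larp7 and Hexim1 peaks also covered all 6. KAP1 covered the matches in ASNS, CHAC1 and HERPUD1, while its peaks began downstream of the ERSE in HSPA5 and XBP1. Cdk9 covered those in CHAC1, XBP1 and HERPUD1, and its peak began downstream of the match in ASNS and HSPA5. The matches were sought only near the start, where promoter peaks lie. How often such positions are covered at other coding promoters was not computed.

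All 10 genes carried Pol II at a promoter with no stress treatment named, and nearly all carried the other factors with it. Pol II, KAP1, Larp7 and Hexim1 were each at a promoter of 10 of the 10 genes, while the share of all coding genes was 77.2% with Pol II, 72.3% with KAP1, 82.1% with Larp7 and 84.6% with Hexim1. Cdk9 was at 9 of the 10, against 77.0% of coding genes. All 5 factors were at 9 of the 10 genes and at 68.0% of coding genes. The exception was PPP1R15A, which encodes GADD34, the subunit that brings a phosphatase to eIF2α and so ends the response.

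These counts stand beside a high level of Pol II. Among the 15551 coding genes with Pol II at a promoter, KAP1 was at 89.9%, Larp7 at 96.5%, Hexim1 at 98.9%, Cdk9 at 93.6% and all 5 factors at 88.0%. All 10 genes had a Pol II peak above the median fold of these coding genes in their promoter windows, DDIT3 only through a peak at a start of the neighbouring gene MBD6 (52.7). The peak at its own canonical start (24.2) was below that median. Among the 7774 genes above that median, Pol II was at 100.0% by construction, Hexim1 at 100.0%, Larp7 at 99.5%, Cdk9 at 98.8%, KAP1 at 96.9% and all 5 factors at 96.2%. The count of 9 of 10 is therefore near the background of genes above the median Pol II fold.

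The deposited fold is how far a peak stands over its background as the authors' caller gave it, and it was read within each list only. Whether it depends on peak width was not tested. The strongest Pol II promoter peak of the 10 genes had a fold of 52.7 at the lowest, 93.9 at the median and 138 at the highest, against a median of 41.4 over the coding genes with Pol II. For Hexim1 the median of the 10 was 9.42, against 7.12 over all coding genes with it, and for Cdk9 it was 5.36 over 9 genes, against 4.66. KAP1 and Larp7 were near the median of all, at 5.03 against 4.91 and at 4.77 against 4.99. As percentiles among coding genes with the factor, the medians of the 10 genes were 87.2 for Pol II, 83.0 for Hexim1, 76.0 for Cdk9, 54.7 for KAP1 and 41.6 for Larp7.

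**Figure D1:**
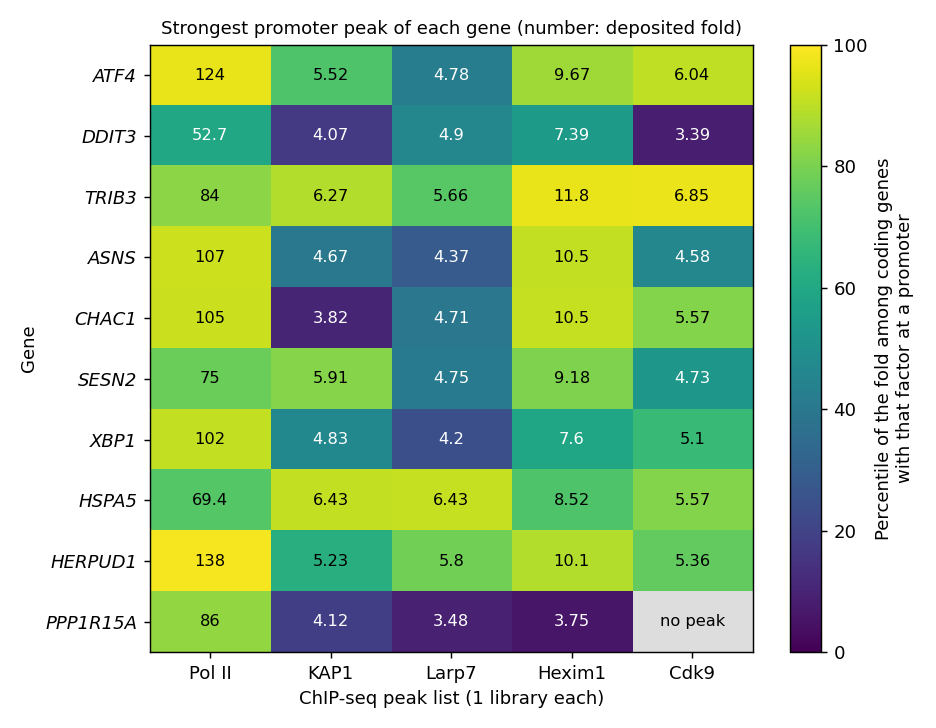
Strongest promoter peak of the 10 genes (rows) in the 5 peak lists (columns), with the deposited fold as the number and its percentile among coding genes with that factor at a promoter as the colour; grey marks no peak. Pol II percentiles run between 59.6 (DDIT3) and 98.6 (HERPUD1), and KAP1 spreads between 10.5 (CHAC1) and 90.7 (HSPA5). The DDIT3 values of Pol II, KAP1, Larp7 and Hexim1 are from peaks at a start of MBD6, and with its canonical start alone its Pol II percentile is 34.9.

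ATF4, the transcription factor at the centre of the response, had separate Pol II peaks at its alternative starts. The gene lies on chromosome 22 at 39915700 to 39918688 (hg19, plus strand), and its canonical transcript starts 867 bp inside the annotated 5′ end. A Pol II peak with a fold of 70.5 had its summit 254 bp past the 5′ end, and a second with a fold of 124 had its summit 167 bp past the canonical start, in the 5′ UTR of exon 1. A single peak of each other factor spanned both: KAP1 at a fold of 5.52 over 1518 bp, Larp7 at 4.78 over 1603 bp, Hexim1 at 9.67 over 1678 bp and Cdk9 at 6.04 over 1590 bp. The percentiles were 96.8 for Pol II, 90.6 for Cdk9, 85.6 for Hexim1, 72.6 for KAP1 and 42.1 for Larp7, so Larp7 alone was below its median.

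DDIT3 encodes CHOP, a factor that ATF4 induces and that promotes cell death under lasting stress. It had the lowest Pol II, and the strongest peaks in its windows lay at a start of the neighbouring gene MBD6. The canonical start lies 1223 bp inside the annotated 5′ end on chromosome 12 (57910371 to 57915520, minus strand), and the Pol II peak there had a fold of 24.2 with its summit 40 bp upstream of that start. The stronger Pol II peak in its windows, with a fold of 52.7, had its summit 41 bp from a start of MBD6. With the canonical start alone, a setting chosen after the data were seen, DDIT3 was at percentile 34.9 for Pol II, 43.1 for Hexim1, 13.5 for Larp7, 8.67 for Cdk9 and 0.952 for KAP1. The KAP1 peak near it had a fold of 3.15 and a deposited −log10 q of 1.44, and its middle lay 69 bp from another start of MBD6. The microRNA gene MIR616 lies inside DDIT3, and a Pol II peak in intron 1 (fold 9.07) had its summit 524 bp from the MIR616 start.

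TRIB3 encodes a pseudokinase that binds ATF4 and dampens its activity. It lies on chromosome 20 at 343479 to 378203 (plus strand). Its annotated 5′ end had no Pol II or KAP1 peak and only a Larp7 (2.74), a Hexim1 (2.77) and a Cdk9 peak (2.81). The canonical start 17925 bp further in carried all 5 factors. Folds there were 84.0 for Pol II, 6.27 for KAP1, 6.85 for Cdk9, 11.8 for Hexim1 and 5.66 for Larp7, and Cdk9 and Hexim1 were at percentiles 97.2 and 96.6. The Pol II summit was 1033 bp past the canonical start, in intron 1, and 496 bp past the nearest annotated start of the gene, the longest such distance of the 10 genes apart from the MBD6 peak near DDIT3.

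Among the enzymes and effectors that ATF4 induces, KAP1 varied more than Pol II did: its percentile was 39.9 in ASNS, 10.5 in CHAC1 and 82.0 in SESN2, and 88.6 in TRIB3. ASNS, which makes asparagine and lies on chromosome 7 at 97480989 to 97501854 (minus strand), had folds of 107 for Pol II, 4.67 for KAP1, 4.58 for Cdk9, 10.5 for Hexim1 and 4.37 for Larp7. CHAC1, which degrades glutathione and lies on chromosome 15 at 41245160 to 41248710 (plus strand), had 105 for Pol II, 3.82 for KAP1, 5.57 for Cdk9, 10.5 for Hexim1 and 4.71 for Larp7. In both genes Pol II and Hexim1 lay between percentiles 90.9 and 92.5. SESN2, a stress-induced inhibitor of mTORC1 signalling on chromosome 1 at 28586029 to 28609002 (plus strand), had folds of 75.0 for Pol II, 5.91 for KAP1, 4.73 for Cdk9, 9.18 for Hexim1 and 4.75 for Larp7. Its Pol II was at percentile 77.5.

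Genes of the ATF6 and XBP1 arms also differed among themselves. HSPA5 encodes BiP, the main chaperone of the endoplasmic reticulum, on chromosome 9 at 127997132 to 128003661 (minus strand), and had folds of 69.4 for Pol II, 6.43 for KAP1, 5.57 for Cdk9, 8.52 for Hexim1 and 6.43 for Larp7. Its KAP1 and Larp7 percentiles, 90.7 and 91.1, were the highest of the 10 genes, at peaks of 348 bp and 506 bp. Its Pol II percentile was 73.5. HERPUD1, a membrane protein of endoplasmic reticulum-associated degradation on chromosome 16 at 56966054 to 56978776 (plus strand), had the highest Pol II fold of the 10 at 138 (percentile 98.6), with KAP1 at 5.23, Larp7 at 5.80, Hexim1 at 10.1 and Cdk9 at 5.36. XBP1, whose mRNA is spliced by IRE1, lies on chromosome 22 at 29190543 to 29196585 (minus strand) and had folds of 102 for Pol II, 4.83 for KAP1, 5.10 for Cdk9, 7.60 for Hexim1 and 4.20 for Larp7. Its Larp7 was at percentile 24.3 and its Pol II at 90.7.

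PPP1R15A had low Larp7 and Hexim1 folds under a high Pol II fold. It lies on chromosome 19 at 49375469 to 49379316 on the plus strand. The Pol II fold was 86.0 (percentile 83.8), with folds of 4.12 for KAP1, 3.48 for Larp7 and 3.75 for Hexim1, at percentiles 18.7, 9.15 and 6.03. No Cdk9 peak reached the promoter windows, and the nearest were 10700 bp upstream of them and 1549 bp downstream. The downstream Cdk9 peak (fold 3.60) lay inside the gene, in the same place as the strongest Pol II peak of its body. The Hexim1 peak was the widest strongest promoter peak of the 10 genes in any list, at 3587 bp, and its upstream edge lay at -2599 bp from the canonical start. The Larp7 peak was 1764 bp wide and the KAP1 peak 226 bp. The folds and percentiles were not adjusted for width.

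Peaks of the 5 lists lay on each other at these promoters. In all 10 genes the strongest KAP1, Larp7 and Hexim1 promoter peak held the summit of the strongest Pol II peak, and so did Cdk9 in 8 of 9. Among coding genes with both peaks at a promoter, this held for Hexim1 in 90.6%, Cdk9 in 83.4%, KAP1 in 82.4% and Larp7 in 80.1%. Above the median Pol II fold it held for Hexim1 in 93.3%, Cdk9 in 87.8%, KAP1 in 86.4% and Larp7 in 81.4%. The counts of the 10 genes are thus close to what most Pol II promoters show. The exception was DDIT3, whose promoter Cdk9 peak lay at the weaker Pol II peak. A weak Cdk9 peak (fold 2.85, −log10 q 1.07) did hold the stronger Pol II summit there, but it began just outside the promoter windows and was counted in the flank. Taken from the Pol II summit, with downstream positive, the middle of the KAP1 peak lay at a median of 44.5 bp over the 10 genes (lowest -408, highest 499). The median was 139.5 bp for Cdk9 over 9 genes, and -22 bp for Larp7 and -166 bp for Hexim1 over 10 genes. These offsets are small beside the median peak widths of 723.5 bp for KAP1, 1449 bp for Larp7, 1505 bp for Hexim1, 1226 bp for Cdk9 and 1333.5 bp for Pol II, and they do not order the factors.

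**Figure D2:**
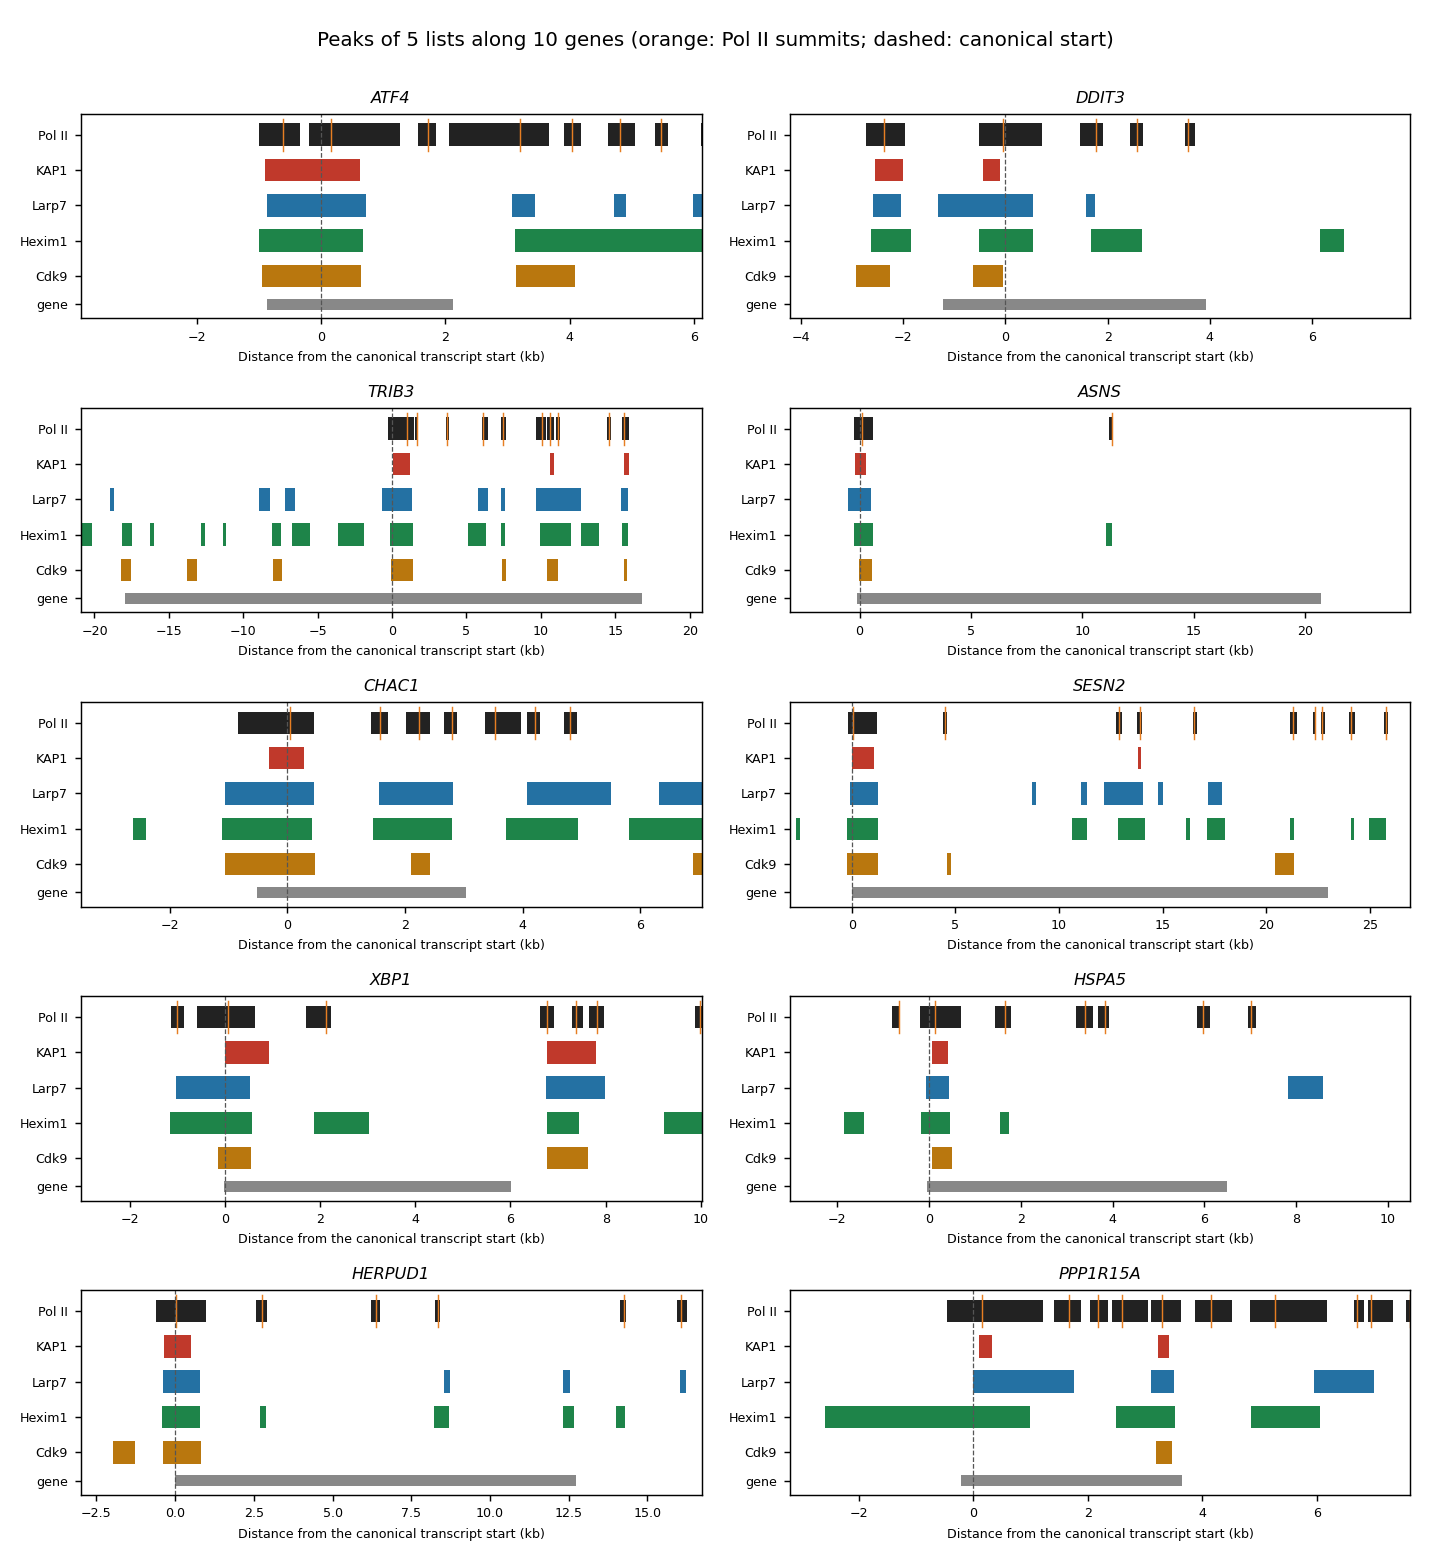
Peaks of Pol II, KAP1, Larp7, Hexim1 and Cdk9 (coloured bars) along each of the 10 genes (grey bar), by distance in kb from the canonical transcript start (dashed line), with Pol II summits in orange. The 5 lists stack at the start in 9 genes; PPP1R15A lacks Cdk9 there and has it near its 3′ end, and TRIB3 has no Pol II at its far upstream 5′ end.

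Inside the genes, Pol II was found in all 10, and KAP1 in few. A Pol II peak lay in the body, outside all promoter windows, of 10 of the 10 genes, against 51.5% of coding genes with a body. KAP1 was in the body of 3 of the 10 (43.5% of all), Larp7 of 5 (71.6%), Hexim1 of 7 (74.7%) and Cdk9 of 4 (64.2%). The Pol II count was 7 with promoter windows of 2 kb (48.4% of all) and 7 with a −log10 q of at least 5 (43.2%). It was 4 with the 20000 peaks of highest −log10 p (15.0%). For the body, the share among genes above the median Pol II promoter fold was not computed. The bodies of the 10 genes are short, at a median of 2968.5 bp against 23437 bp over all coding genes, and a shorter body has less room for a peak. Pol II peaks, those at the promoter included, covered between 4.50% of the gene in ASNS, which is 20.866 kb long, and 87.9% in PPP1R15A, which is 3.848 kb long. Of the 33 Pol II body peaks, Hexim1 overlapped 20, Larp7 13, Cdk9 9 and KAP1 4, and 12 had no other factor. Of the 18 Pol II promoter peaks, Hexim1 and Larp7 each overlapped 15, KAP1 12 and Cdk9 11. The same shares over the Pol II peaks of all coding genes were not computed, so these overlap counts only describe the 10 genes.

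The body peaks with all of the other factors were in TRIB3 and PPP1R15A. In TRIB3 they lay in coding exon 3 (Pol II fold 10.8, 10609 bp past the canonical start) and coding exon 4 (12.2, at 15602 bp). Exon 2 of TRIB3 had the highest Pol II fold of its body, 15.9, without KAP1 but with Larp7 (6.51), Hexim1 (7.98) and Cdk9 (3.22). In PPP1R15A the peak lay in coding exon 3, on chromosome 19 at 49378788 to 49379301, with a Pol II fold of 37.2, KAP1 of 6.03, Larp7 of 5.95, Hexim1 of 7.53 and Cdk9 of 3.60. The KAP1, Larp7 and Hexim1 folds of this exonic peak were above those at the promoter of the same gene, with peak width not accounted for. SESN2 had 7 Pol II body peaks, with folds of 3.74 to 6.69, of which the one in exon 6 carried KAP1 (3.78). ASNS, with 13 exons, had only 1 Pol II body peak, in intron 4 with a fold of 4.68.

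Pol II peaks were also common around the 3′ ends, a zone that was chosen after its values were seen. A Pol II peak that avoided 1 kb around every annotated transcript start lay within 1 kb of the 3′ end in 8 of the 10 genes, against 19.4% of coding genes and 28.8% of those above the median Pol II promoter fold. The other two were ASNS and HERPUD1. KAP1 was there in 3 of the 10 (9.43% of coding genes and 10.9% of those above the median Pol II fold), Larp7 in 5 (20.3% and 22.3%), Hexim1 in 6 (23.3% and 26.0%) and Cdk9 in 4 (14.3% and 16.1%). All 5 factors were there in TRIB3, XBP1 and PPP1R15A, that is 3 of the 10, against 3.98% of coding genes. This joint count rests on weak peaks. The Cdk9 peak had a −log10 q of 2.63 in TRIB3 and 1.69 in XBP1, and no Cdk9 body peak of the 10 genes reached 5. For the joint count, the share among genes above the median Pol II fold was not computed, nor were counts with stricter peak thresholds. The strongest Pol II peak near a 3′ end was at ATF4, 1609 bp wide with a fold of 41.8 and its summit 1084 bp past the 3′ end. It was at percentile 97.4 among genes with such a peak, followed by PPP1R15A (37.2, percentile 96.6) and CHAC1 (24.3, percentile 91.2). DDIT3 had the weakest, with a fold of 3.43.

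Past the 3′ end, Pol II summits of peaks off all starts fell within 5 kb in 7 of the 10 genes, against 26.3% of coding genes and 39.9% of those above the median Pol II promoter fold. ATF4 and PPP1R15A had 6 each, XBP1 5, CHAC1 3, SESN2 and HERPUD1 2 each, and HSPA5 1. In TRIB3, ASNS and DDIT3 none was found. A single weak KAP1 peak (1028 bp, fold 3.38, −log10 q 1.73) overlapped 3 of the 5 past XBP1. KAP1 overlapped none of those past the other 6 genes. The genes differ in how near the next gene lies, which was not accounted for. RPS19BP1 lies downstream of ATF4, so the farther peaks there cannot be given to 1 gene.

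**Figure D3:**
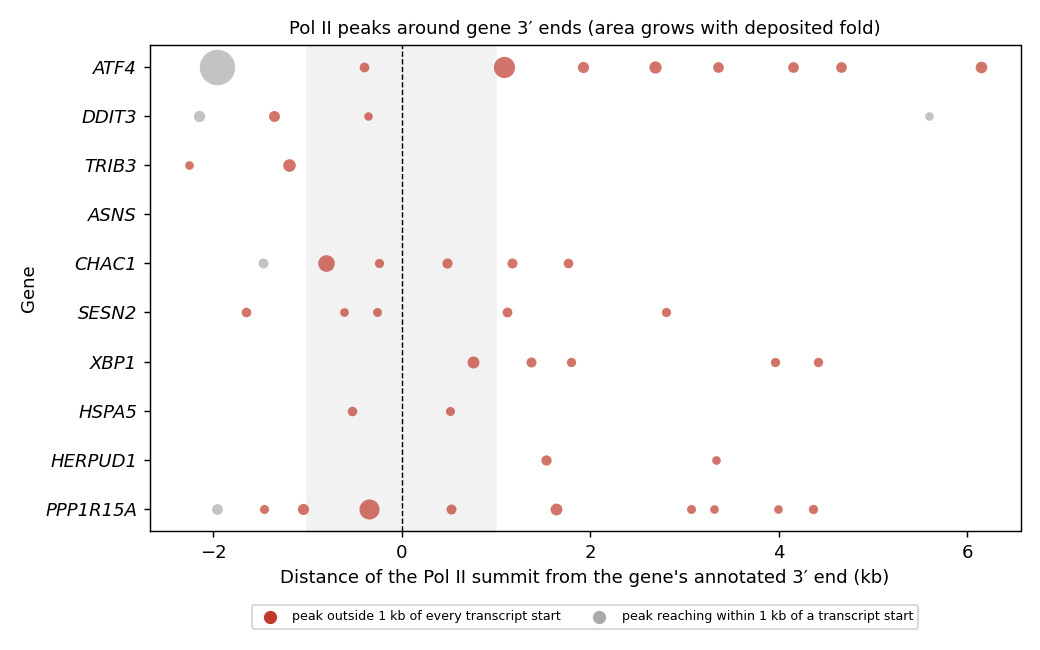
Pol II summits by distance in kb from the annotated 3′ end (dashed line) of each of the 10 genes, with the area of a point growing with the deposited fold and the band marking 1 kb on each side (a peak was counted there when any base reached the band). Red peaks avoid 1 kb around every transcript start and grey peaks do not; ATF4 and PPP1R15A have the largest red points near the 3′ end, with folds of 41.8 and 37.2, and ASNS has none.

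Within 20 kb, some of the strong peaks lay at neighbouring promoters. Flank peaks of Pol II, Larp7, Hexim1 and Cdk9 were found at all 10 genes (67.7%, 88.8%, 91.5% and 82.0% of coding genes in that order) and of KAP1 at 8 of the 10 (64.5%), the exceptions being SESN2 and HERPUD1. Of 58 Pol II flank peaks, 16 reached within 1 kb of an annotated start. The strongest of the 16 were at RPS19BP1 (fold 75.2) and MIEF1 (37.6) beside ATF4, and at RBCK1 (88.0) beside TRIB3. The KAP1 flank peak of HSPA5 lay at the start of GAPVD1 (4.75).

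CHAC1 had a strong site that was at no annotated start. About 11 kb upstream of the gene, on chromosome 15 at 41233598 to 41234616, Pol II had a fold of 119, above the 105 at the CHAC1 promoter and rank 7 among 53282 Pol II peaks that avoid 1 kb around every transcript start, whose median fold is 5.80. KAP1 (5.75), Larp7 (5.05), Hexim1 (9.80) and Cdk9 (4.85) overlapped it, and the KAP1 fold was above the 3.82 at the CHAC1 promoter. The nearest annotated start was that of the pseudogene ISCA1P4, 7021 bp from the summit. Whether the site serves CHAC1 was not tested. Other upstream sites with all 5 factors off every start were weaker, such as that 5745 bp from the nearest ATF4 start (Pol II fold 9.47).

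The wider pathway was read from 57 further genes in 3 lists. Among stress sensors and the other eIF2α phosphatase subunit, all 5 factors were at a promoter of 8 of 10 genes. ATF4 partners and targets had them at 20 of 24, and endoplasmic reticulum chaperones and degradation genes at 22 of 23. In all, 50 of the 57 (87.7%) had all 5 factors, against 68.0% of all coding genes and 88.0% of those with Pol II at a promoter. Pol II was at 55 of the 57, so the like count beside the 88.0% is 50 of 55. KAP1 was at 50 of the 57, against 72.3% of all coding genes and 89.9% of those with Pol II at a promoter.

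The highest Pol II folds among the sensors were at the eIF2α kinase genes EIF2AK1 (125), EIF2AK4 (102) and EIF2AK2 (96.5). EIF2AK3, which encodes PERK, had a Pol II fold of 67.0 and a KAP1 fold of 6.93. ATF3, a stress-induced factor (165), SLC7A5, an amino acid transporter (134), and NFE2L2, the oxidative stress factor NRF2 (133), led the ATF4 list, and the chaperone genes CALR (160), HSP90B1 (129.9) and PDIA4 (129) led the chaperone list. Genes without KAP1 at a promoter were ATF6 (Pol II fold 3.24, no other factor) and EIF2S1 (15.3), which encodes eIF2α, among the sensors. In the ATF4 list they were CTH (43.4), the cystine transporter gene SLC7A11 (7.75, no other factor), and NUPR1 and FGF21, which had no Pol II either. In the chaperone list the gene was DERL2 (61.2).

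**Figure D4:**
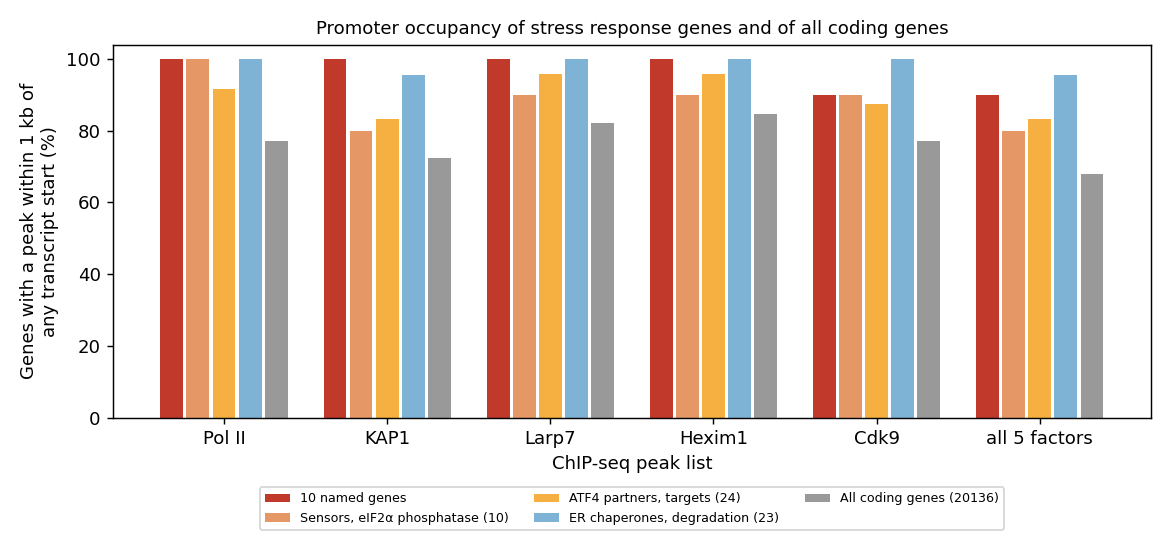
Percentage of genes with a peak within 1 kb of any transcript start, for each list and for all 5 factors together, in the 10 genes, the 3 wider lists and all coding genes (grey); no error bars are drawn because each list is 1 library. For all 5 factors the bars stand at 9 of 10, 8 of 10, 20 of 24 and 22 of 23 genes, and at 68.0% of coding genes.

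The joint occupancy depended on weak peaks. With peaks of a deposited −log10 q of at least 5, all 5 factors were at 4 of the 10 genes, ATF4, TRIB3, HSPA5 and HERPUD1, against 11.6% of coding genes. KAP1 was then at 6 of the 10 (29.0% of coding genes), Cdk9 at 5 (18.1%), Larp7 at 8 (56.1%), Hexim1 at 9 (74.2%) and Pol II at 10 (74.8%). When each list was limited to the 20000 peaks with the highest −log10 p, all 5 were again at 4 of the 10, TRIB3, SESN2, HSPA5 and HERPUD1, against 22.2% of coding genes. Larp7 was then at 4 of the 10 (39.1% of coding genes), KAP1 at 7 (48.8%), Cdk9 at 8 (47.7%), Hexim1 at 9 (59.6%) and Pol II at 10 (59.7%). PPP1R15A kept only Pol II under both settings. The shares among genes above the median Pol II fold were not computed at these settings, so these contrasts are with all coding genes.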

How the data were processed

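ChIP-seq peak lists of 5 HCT116 libraries, 1 per antibody, were used and the other libraries of the series were not analysed here. Per the submitters' processing notes, the authors aligned reads with Bowtie 1.1 to hg19 and called peaks with MACS2. No source used here gives the control library, calling settings, duplicate handling or read depth. Summits came with Pol II alone (narrow layout), and the other lists have the broad layout. The fold, a ratio over background, is as deposited and was read within its own list only. The −log10 of the p-value and of the q-value are also as deposited. No peak ended past a chromosome end of GRCh37.

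Genes, transcript starts and canonical transcripts came from GENCODE release 44 on GRCh37, with 1 gene per symbol on chromosomes 1 to 22, X and Y. A factor was at a promoter when a peak overlapped 1 kb on each side of any transcript start by at least 1 bp. The body was the gene outside these windows, and flanks were 20 kb on each side. A peak was counted once, at the promoter, then the body, then the flank. Percentiles are among coding genes with that factor at a promoter. The genes, the wider lists and the markers were chosen with earlier results of these data known. Besides the 10 genes, the text names the 3 genes of highest Pol II fold and those lacking Pol II or KAP1 in each list, the 5 most like ATF4, and genes at flank peaks; EIF2AK3 was named besides these after its values were seen. PECAM1 was not matched. Alternatives were the −log10 q threshold, equal list lengths, windows of 500 bp and 2 kb, the gene's 5′ end or canonical start alone, the middle of each peak in the window, and flanks of 10 kb. Overlap counting was tested on simulated data, in Python 3.11.15 with pandas 2.3.3.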

Additional observations from a re-analysis of the deposited data

How the results depend on the processing

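No paired analysis was possible because each antibody has 1 library. Window and start settings changed few counts: with windows of 2 kb, Pol II was in the body of 7 genes (48.4% of coding genes) and Hexim1 of 4 (74.6%). TRIB3 had 3 factors at its annotated 5′ end alone. The canonical start alone was chosen after seeing the data and moved no count by over 1.5 times. A −log10 q minimum of 5 left KAP1 at a promoter of 6 genes (29.0% of coding genes), Cdk9 of 5 (18.1%) and all 5 factors of 4 (11.6%). Body counts then, each with the share of coding genes, were KAP1 1 (8.12%), Larp7 3 (29.4%), Hexim1 3 (34.9%) and Cdk9 0 (5.64%), and flank counts KAP1 2 (24.1%), Larp7 5 (51.9%) and Cdk9 2 (16.1%). All 5 factors were then at 4 of 10 sensor, 8 of 24 ATF4 list and 4 of 23 chaperone list genes, against 11.6% of coding genes. With 20000 peaks per list, Larp7 was at a promoter of 4 genes (39.1% of coding genes) and all 5 factors of 4 (22.2%). Body counts were Pol II 4 (15.0%), Larp7 2 (20.7%), Hexim1 2 (17.1%) and Cdk9 1 (19.3%). Flank counts were Pol II 4 (42.6%), KAP1 5 (41.5%), Larp7 5 (39.1%), Hexim1 5 (44.5%) and Cdk9 5 (41.4%), and all 5 factors were at 5 sensor, 12 ATF4 list and 5 chaperone list genes. These settings keep fewer peaks by construction. A missing weak peak says nothing about absence, since depth is unknown.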

Other observations

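The coding genes whose promoter folds were most like those of ATF4 were MARCKSL1, CBFB, ACTN4, TTC19 and ZSWIM7. Likeness was the Euclidean distance over the 5 percentiles of promoter fold, 1 for each library, among 13691 other coding genes with all 5 factors. The distances were between 8.28 and 8.57 percentile points, against a median of 83.3 over those genes. TTC19 and ZSWIM7 had identical values in all 5 lists. Of the 8 others among the 10 genes that have all 5 factors, HERPUD1 was nearest at 40.5 points (rank 1068), next to TRIB3 at 40.6 (rank 1072), and DDIT3 farthest at 110 (rank 10140). The DDIT3 distance uses peaks at a start of the neighbouring gene MBD6 for Pol II, KAP1, Larp7 and Hexim1. PPP1R15A has no Cdk9 value and was not ranked. In the 3 wider lists, 14 of 50 ranked genes were nearer to ATF4 than HERPUD1, led by PDIA4 at 16.4 points (rank 39) and EIF2AK2 at 19.7 (rank 97).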
